A study of Mus musculus with 18 samples.

Results

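The alpha-arrestin gene Arrdc2, 3 of its relatives (Arrdc3, Arrdc4 and Txnip) and 6 genes known to be induced by glucocorticoids (Fkbp5, Tsc22d3, Klf15, Ddit4, Pdk4 and Zbtb16) were followed in mouse quadriceps. These 10 genes were found by their deposited gene names among 48709 listed genes, of which 31665 carried an exon length above 0, and each was measured in all 18 libraries. Arrdc2 was chosen because an earlier reading of these data had found its transcript lower in vehicle-treated dyW muscle than in vehicle-treated wild type (WT) muscle. In that contrast every gene of the set is therefore given as a description, with no test, and Arrdc2 is also left untested in the comparisons that share those vehicle libraries.

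The dyW mouse (B6.129S1(Cg)-Lama2tm1Eeng/J) is deficient in the laminin alpha 2 chain of the muscle basement membrane and models LAMA2-related congenital muscular dystrophy, while WT mice were C57BL/6J. The labels call the allele a knock-out and the mutants of the colony hemizygotes, and name no promoter or Cre. TD139 blocks galectin-3, which is a lectin released by macrophages, and PBS served as vehicle by the group names; dose, route and duration are not in the labels. Groups were untreated dyW (n = 4) and untreated WT (n = 3) mice, dyW mice given TD139 (n = 3) and dyW mice given PBS (n = 3), and WT mice given TD139 (n = 2) and WT mice given PBS (n = 3). By their age labels the untreated mice were 5 weeks old and the treated mice 3 weeks old, although the protocol of all of them places tissue collection at 5 weeks. Each library was made from whole quadriceps, and the hour of collection and the feeding state are not in the labels.

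Alpha-arrestins are adaptor proteins. They carry short motifs that bind ubiquitin ligases of the Nedd4 family and bring these ligases to membrane proteins, which are then taken into the cell and sorted. Txnip also binds thioredoxin and lowers glucose uptake, and its gene is switched on by glucose through the factors MondoA and ChREBP. Glucocorticoids act through the receptor encoded by Nr3c1, which enters the nucleus and binds response elements near its target genes. In muscle such targets restrain growth signalling and shift fuel use from glucose to fat and amino acids.

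Promoter sequences of 9 of the 10 genes were matched in the RefSeq promoter table (GRCm38.p6); Zbtb16 had no entry. Each window runs from 250 bases before the transcript start to 50 after it, and 5 motifs were searched on both strands. Where the table lists several starts for a gene, the start nearest to the deposited gene edge was used. The Fkbp5 start lay 31375 bases from that edge, inside the deposited gene, and those of the other genes at most 137 bases from it. The windows of Arrdc2, Txnip and Tsc22d3 are shown from base 250 before the start up to the start. Arrdc2 and Tsc22d3 were picked for an adjusted p under 0.05 (edgeR) between untreated dyW and untreated WT muscle, which many alternative fits did not reach. Txnip was picked as the relative with a known glucose response. Capitals mark a CCAAT box (CCAAT, read here as ATTGG on the other strand) for Arrdc2 at chr8:70839721-70839970 on the minus strand, a carbohydrate response element for Txnip at chr3:96557707-96557956 on the plus strand, and a glucocorticoid half-site for Tsc22d3 at chrX:140600523-140600772 on the minus strand.
Arrdc2: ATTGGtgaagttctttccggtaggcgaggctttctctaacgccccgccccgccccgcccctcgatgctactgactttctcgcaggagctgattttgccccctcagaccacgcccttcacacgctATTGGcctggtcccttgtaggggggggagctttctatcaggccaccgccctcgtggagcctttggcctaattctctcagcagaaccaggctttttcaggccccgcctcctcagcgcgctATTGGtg
Txnip: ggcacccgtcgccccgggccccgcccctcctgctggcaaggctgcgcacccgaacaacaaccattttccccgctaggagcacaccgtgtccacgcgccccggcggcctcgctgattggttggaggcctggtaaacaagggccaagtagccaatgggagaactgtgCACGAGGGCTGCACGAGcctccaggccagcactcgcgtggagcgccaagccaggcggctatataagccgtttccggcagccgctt
Tsc22d3: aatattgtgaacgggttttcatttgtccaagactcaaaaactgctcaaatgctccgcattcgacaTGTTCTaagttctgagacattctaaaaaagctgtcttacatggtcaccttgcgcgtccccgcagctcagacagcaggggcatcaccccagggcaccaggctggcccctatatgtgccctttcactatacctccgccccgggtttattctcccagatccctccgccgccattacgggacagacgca
The Arrdc2 window held 3 CCAAT boxes, a number reached or passed by 3.37% of 32851 promoters of the same length; the share with at least 1 was 37.4%. The other 8 windows held from 0, in that of Tsc22d3, to 6, in that of Arrdc4. In the Txnip window 1 match to the carbohydrate response element (CACGNG, any 5 bases and CACGNG again) began 85 bases before the start, and 0.0487% of all promoters (16 of them) hold one. A full glucocorticoid response element (AGAACA, any 3 bases and TGTTCT) was in none of the 9 windows and in 0.00913% of all promoters. Of the half-site (AGAACA or TGTTCT), which the full element contains, 1 copy lay in the Tsc22d3 window, and 19% of all promoters hold at least 1; the windows of the other listed Tsc22d3 starts held 0 copies. The E-box CACGTG, found in 7.15% of all promoters, occurred 3 times in the Klf15 window and once each in those of Arrdc4 and Fkbp5; 0.0883% of promoters hold 3 or more. These matches describe the letters of short windows and say nothing of binding.

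Levels are given as the authors' RPKM, reads per kilobase of exon scaled to the mapped reads of the library, and differences as log2 fold changes fitted to exon read counts with edgeR after TMM scaling. A gene counted as called at an adjusted p under 0.05 over all genes tested. Libraries held from 15.8 to 45.2 M exon reads, the fewest in dyW PBS replicate 1. Lama2 averaged 0.707 ± 0.119 RPKM in untreated dyW and 4.75 ± 0.279 RPKM in untreated WT libraries (SD, n = 4 and 3), 0.715 ± 0.0658 against 3.75 ± 0.731 RPKM under PBS (n = 3 each), and 0.940 ± 0.250 against 3.35 ± 1.66 RPKM under TD139 (n = 3 and 2). It was lower in every dyW library than in every WT library. Skeletal muscle markers such as Ckm and Acta1 were high in all 18 libraries, and no marker of the muscle list was at 0. The 2 scales differ by genotype: over all genes the median difference in untreated muscle was 0.53 on log2(RPKM + 0.1) and 0.03 after TMM scaling, so a gene equal in RPKM comes out lower in dyW after TMM.

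Arrdc2, which is raised by glucocorticoids in rodent muscle, is described first, in all 6 groups (see the plot of levels by library). Its gene (ENSMUSG00000002910) is protein-coding and lies on chromosome 8 from 70835129 to 70839720, on the minus strand of mm10. In untreated dyW muscle it stood at 8.81, 5.34, 4.37 and 6.42 RPKM, against 17.7, 29.1 and 3.15 RPKM in untreated WT muscle. After TD139, dyW muscle had 2.18, 2.12 and 1.44 RPKM, while dyW muscle given PBS had 5.87, 8.20 and 13.0 RPKM. WT muscle had 5.53 and 9.11 RPKM after TD139, and 16.6, 18.3 and 29.2 RPKM after PBS. The 3 dyW TD139 libraries were the lowest of all 18, and the untreated WT libraries were split, with replicate 3 below every untreated dyW library in RPKM. By group mean the order ran upwards from dyW TD139 (1.91 ± 0.408 RPKM, n = 3) and untreated dyW (6.23 ± 1.91, n = 4) through WT TD139 (7.32 ± 2.54, n = 2) and dyW PBS (9.02 ± 3.62, n = 3) to untreated WT (16.7 ± 13.0, n = 3) and WT PBS (21.4 ± 6.82, n = 3; RPKM ± SD). Every neighbouring pair in this order overlapped except the lowest pair, in which the highest dyW TD139 library lay below the lowest untreated dyW library. The highest library exceeded the lowest 20.2-fold.

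**Figure D1:**
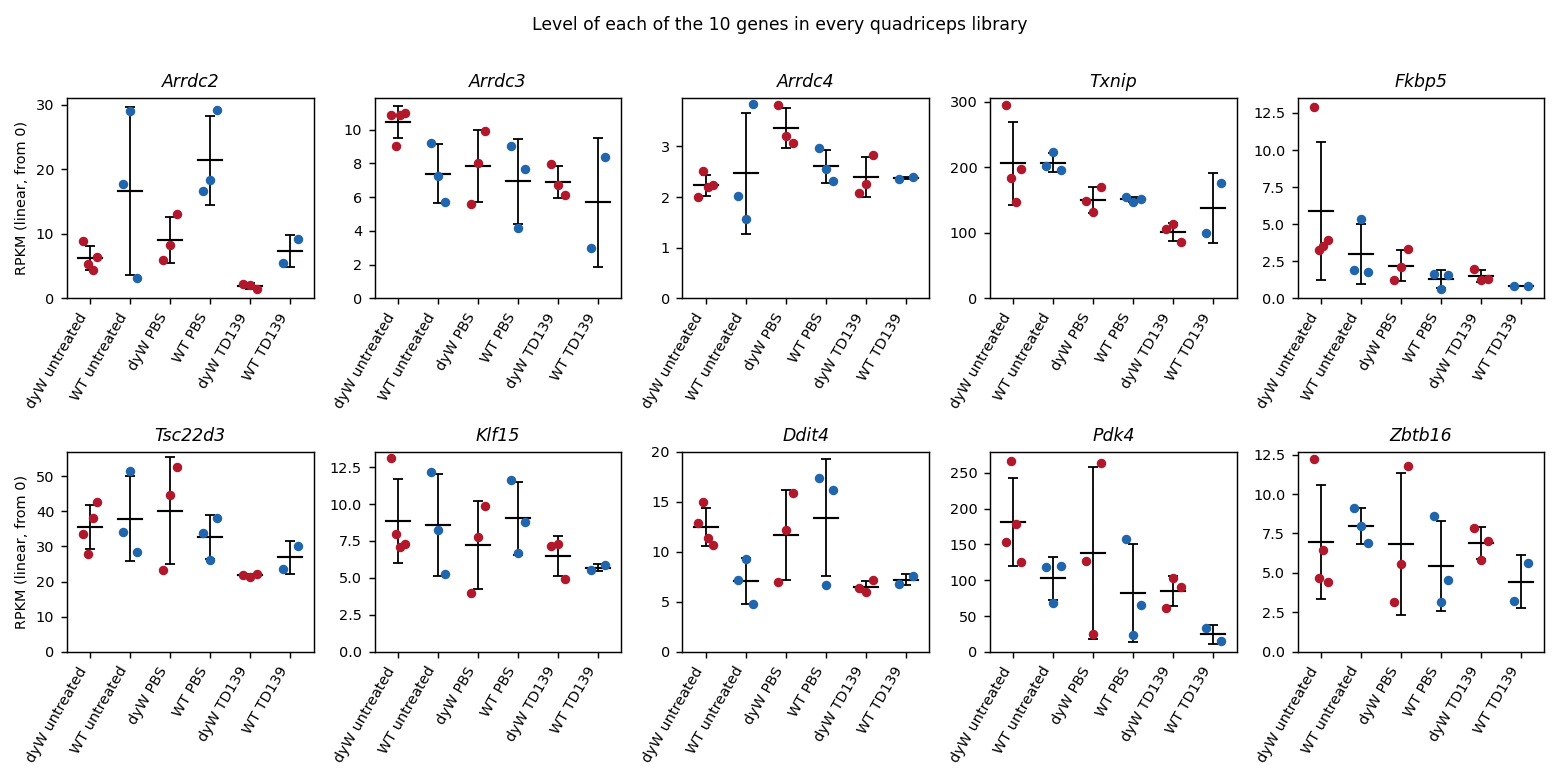
RPKM (vertical axis, linear from 0) of the 10 genes in each of the 18 libraries, by group, with dyW in red and WT in blue. Points are mice, horizontal bars are group means and error bars are SD. Arrdc2 lies between 1.44 and 2.18 RPKM in dyW TD139 muscle and between 16.6 and 29.2 RPKM in WT PBS muscle.

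In untreated muscle, 2 of the 10 genes were called, both lower in dyW: Arrdc2 and Tsc22d3. Over all 14846 genes tested 49.8% were called, 24.7% higher and 25.1% lower; the share of the set, 2 of 10, did not exceed that background. For Arrdc2 the fitted log2 fold change was -1.95 (SE 0.60, adjusted p = 0.0254, edgeR), a 3.88-fold lower level, and the groups overlapped because untreated WT replicate 3 lay among the dyW libraries. That call was lost without WT replicate 1 (adjusted p = 0.0515), without WT replicate 2 (log2 fold change -1.17, adjusted p = 0.131) and without dyW replicate 2, 3 or 4 (adjusted p = 0.0657, 0.0669 and 0.0511, edgeR). On log2(RPKM + 0.1) with limma the difference was -0.96 with an adjusted p of 0.231. The authors' deposited table gives Arrdc2 a log2 fold change of -1.97 with an adjusted p of 2.72e-06 in this comparison. In bulk tissue, fewer cells of a type and less RNA per cell cannot be told apart.

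All 10 genes overlapped between untreated dyW and untreated WT muscle after TMM scaling, whereas 53.8% of all genes did not. The median fitted log2 fold change was -0.50 over the 10 genes and 0.03 over all genes, with 7 of the 10 below 0. On log2(RPKM + 0.1) the median of the 10 was 0.02, with 5 above 0 and 5 below, beside an all-gene median of 0.53. The members called there by limma were Arrdc3, Ddit4 and Pdk4, all higher in dyW, which are 3 other genes than those called after TMM. Over all genes, 85.6% of the calls on that scale were higher in dyW, against 49.6% after TMM. Directions near 0 in this comparison therefore depend on the scale, and are given below on both scales.

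**Figure D2:**
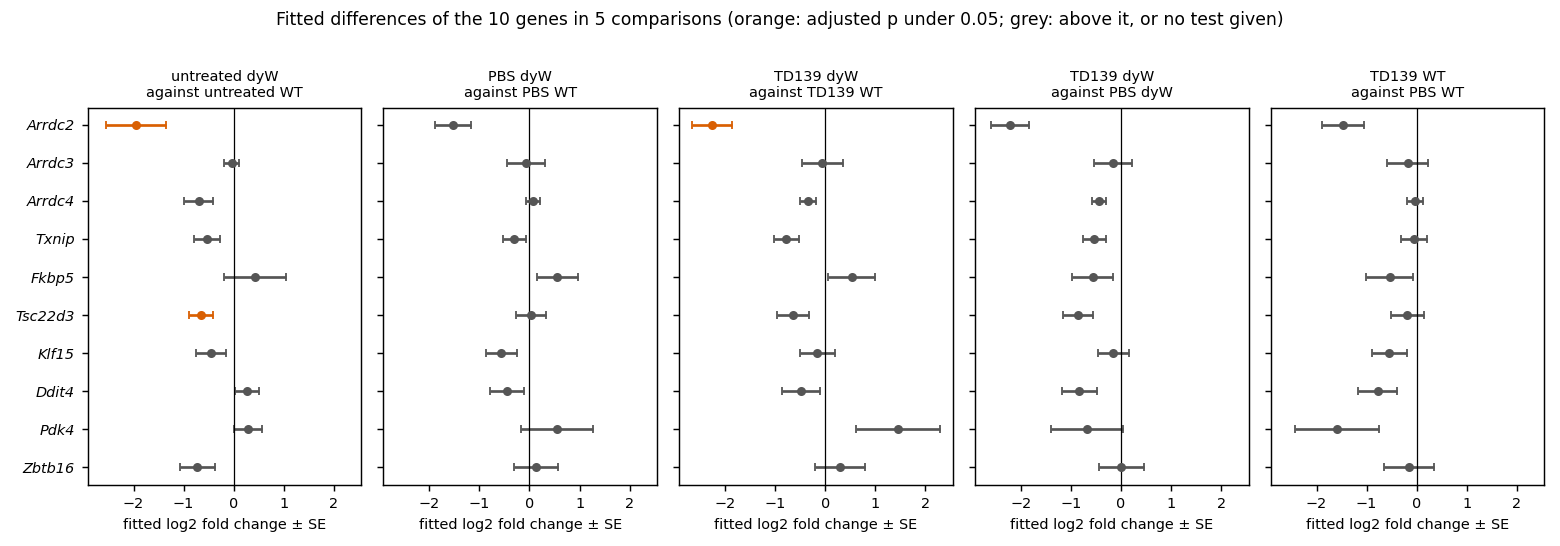
Fitted log2 fold change with SE (horizontal axis) of the 10 genes (rows) in 5 comparisons (panels), each panel title giving the numerator of the ratio first. Orange points passed an adjusted p of 0.05, and grey points did not or were given no test, as were all genes in PBS dyW against PBS WT and Arrdc2 in the comparisons with PBS. Arrdc2 lies left of 0 in all 5 panels, at -1.95, -1.53, -2.27, -2.22 and -1.48.

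Under TD139, dyW and WT muscle differed at Arrdc2 again. The 3 dyW TD139 libraries (1.44 to 2.18 RPKM) lay below both WT TD139 libraries (5.53 and 9.11 RPKM), with a fitted log2 fold change of -2.27 (SE 0.40, adjusted p = 0.0232, edgeR), a 4.83-fold lower level. It was the only call among the 10 genes, beside 1.04% of 15331 genes tested, or 0.287% counting those lower in dyW. No library of this contrast was used when Arrdc2 was singled out, but the choice of Arrdc2 was made with these data known. The fit of 4 groups also took its scaling and spread from the PBS libraries. Its SE and adjusted p are therefore not independent of that choice. With any 1 of the 5 libraries left out, the log2 fold change was -2.58 to -1.88 and its adjusted p was 0.0734 to 0.103, above 0.05 each time. For 7 of the 10 genes the 2 genotypes did not overlap after TMM scaling (Arrdc2, Arrdc4, Txnip, Tsc22d3 and Ddit4 lower, Fkbp5 and Pdk4 higher in dyW); with 3 against 2 libraries, 37.7% of all genes were separated in this way, 20% higher and 17.7% lower.

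In the vehicle contrast that led to the choice of Arrdc2, its fitted log2 fold change was -1.53 (SE 0.36), with all 3 dyW PBS libraries below all 3 WT PBS libraries. None of the other 9 genes was separated between dyW PBS and WT PBS muscle, where 17.6% of all genes were (6.51% lower in dyW) and 2.68% were called. Their fitted log2 fold changes were small or uncertain, from -0.56 (SE 0.31) for Klf15 to 0.55 for Fkbp5 and Pdk4 (SE 0.41 and 0.71). Without dyW PBS replicate 3 the values were 0.08 for Fkbp5, -0.45 for Pdk4 and -0.90 for Klf15. The median of the 10 was -0.02, and that of all genes was -0.03.

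TD139 was set against PBS within each genotype. In dyW muscle, Arrdc2 had a fitted log2 fold change of -2.22 (SE 0.38) and the 3 TD139 libraries lay below the 3 PBS libraries; in WT muscle the value was -1.48 (SE 0.42), and both TD139 libraries lay below the 3 PBS libraries. The authors' deposited table gives -2.218 for Arrdc2 in dyW muscle. These 2 comparisons use the libraries that the choice of Arrdc2 rested on, so the values are descriptive. In neither comparison did edgeR call a gene: it called 0 of 15331 genes (0%) in dyW and 0 (0%) in WT muscle, with 583 and 304 genes at an unadjusted p under 0.05, and DESeq2 called 4 and 3. For the 9 other genes the smallest adjusted p was 0.888 in dyW and 1 in WT muscle (edgeR). The difference of the TD139 effect between dyW and WT was -0.74 (SE 0.54) for Arrdc2, given with no test, and none of the other 9 genes was called for it, with every adjusted p at 1 (edgeR; 0 genes called over the whole table, 294 at an unadjusted p under 0.05, and 1 by DESeq2).

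Most fitted differences between TD139 and PBS were below 0, in genes measured in the same libraries and not independent of one another. In dyW muscle 9 of the 10 fitted differences were below 0, with a median of -0.54 beside -0.01 for all genes, and in WT muscle 10 of 10 were, with a median of -0.37 beside 0.01. Both counts include Arrdc2, and without it the medians were -0.53 in dyW and -0.19 in WT muscle. Some values were near 0, such as -0.03 for Arrdc4 and -0.05 for Txnip in WT muscle. In dyW muscle those of Arrdc3, Klf15 and Pdk4 were above 0 without dyW PBS replicate 3. In WT muscle, where TD139 was given to 2 mice, single libraries also turned signs. Without WT TD139 replicate 1 the values were 0.38 for Arrdc3, 0.30 for Txnip and 0.19 for Zbtb16. Separation of the groups was seen for Arrdc2, Arrdc4 and Txnip in dyW muscle, all lower with TD139 (14.3% of all genes were separated in either direction and 7.08% were lower). In WT muscle Arrdc2 and Klf15 were separated, both lower with TD139 (9.07% of all genes were separated and 4.25% were lower). Apart from Arrdc2, which was chosen from these PBS libraries, no member was separated in both genotypes. The share of all genes separated in both was not counted.

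**Figure D3:**
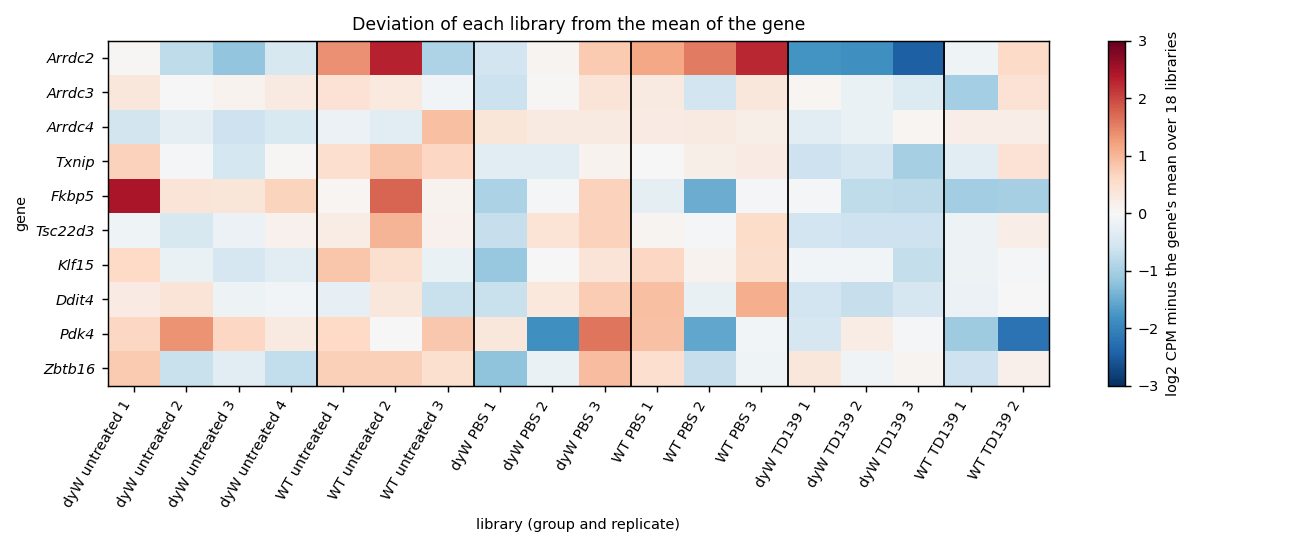
Deviation of each library (columns, grouped by genotype and treatment) from the mean of the gene over 18 libraries, in log2 CPM (counts scaled to library size) after TMM scaling (colour, from -3 in blue to 3 in red), for the 10 genes (rows). Arrdc2 reaches -2.46 in dyW TD139 replicate 3 and 2.31 in untreated WT replicate 2, and Fkbp5 reaches 2.46 in untreated dyW replicate 1.

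Among the other alpha-arrestins, Txnip was the most abundant, with a mean of 163 RPKM over 18 libraries against 10.4 for Arrdc2, 7.81 for Arrdc3 and 2.57 for Arrdc4. Txnip stood at 105, 113 and 85.3 RPKM in dyW TD139 muscle, and at 149, 131 and 170 RPKM in dyW PBS muscle. The 3 dyW TD139 libraries were thus the lower ones, with a fitted log2 fold change of -0.53 (SE 0.23, adjusted p = 0.888, edgeR). In WT muscle given TD139 it had 100 and 176 RPKM, which bracketed the 155, 147 and 151 RPKM of WT muscle given PBS. Untreated dyW muscle had 295, 184, 147 and 197 RPKM and untreated WT muscle 202, 223 and 195 RPKM; means of 206 ± 63.2 and 207 ± 14.4 RPKM (SD, n = 4 and 3) were close, while the fitted value after TMM was -0.54 (SE 0.26, adjusted p = 0.119, edgeR) and the difference on log2(RPKM + 0.1) was -0.05. Without untreated dyW replicate 1, the highest library, the fitted value was -0.78 (adjusted p = 0.0104, edgeR). Txnip overlaps the antisense gene Gm15441, which had 4 to 24 reads per library beside at least 7810 for Txnip.

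Arrdc4, which like Txnip is induced by glucose through MondoA, varied little, 2.46-fold over the 18 libraries. It had 2.08, 2.26 and 2.83 RPKM in dyW TD139 muscle, against 3.81, 3.21 and 3.06 RPKM in dyW PBS muscle, without overlap (log2 fold change -0.44, SE 0.14, adjusted p = 0.888, edgeR). WT muscle showed no such gap, at 2.36 and 2.39 RPKM with TD139 and 2.96, 2.55 and 2.32 RPKM with PBS. Untreated dyW muscle held 2.00 to 2.51 RPKM and untreated WT muscle 2.02, 1.56 and 3.83 RPKM, and the fitted difference of -0.70 (SE 0.29) had an adjusted p of 0.0701 with edgeR, while the difference on log2(RPKM + 0.1) was -0.04. It was called by DESeq2 (adjusted p = 0.0409), with all 18 libraries in 1 edgeR fit (0.0141) and without WT replicate 1 (-0.88, adjusted p = 0.0493) or 2 (-0.93, adjusted p = 0.0325), and was -0.20 without WT replicate 3 (adjusted p = 0.340, edgeR). The authors' deposited table gives Arrdc4 -0.728 with an adjusted p of 0.012. Untreated WT replicate 3, the highest of all libraries for Arrdc4, was the lowest untreated one for Arrdc2 in RPKM. After TMM scaling untreated dyW replicate 3 was lower for Arrdc2.

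Arrdc3, an adaptor known for bringing Nedd4 ligases to the beta2-adrenergic receptor, averaged 10.5 ± 0.964 RPKM in untreated dyW and 7.40 ± 1.77 RPKM in untreated WT muscle (SD, n = 4 and 3). Its fitted log2 fold change was -0.04 after TMM scaling (SE 0.15, adjusted p = 0.851, edgeR) and 0.51 on log2(RPKM + 0.1) (adjusted p = 0.0295, limma), so its direction is set by the scale. In the treated mice it ranged from 6.10 to 7.94 RPKM in dyW TD139, 5.62 to 9.91 in dyW PBS, 2.99 to 8.39 in WT TD139 and 4.15 to 9.02 in WT PBS muscle. All 4 groups overlapped.

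Tsc22d3 and Fkbp5 are known for feedback on glucocorticoid action. Tsc22d3 encodes GILZ, a leucine zipper protein that carries part of the anti-inflammatory action of glucocorticoids. In untreated dyW muscle it had 33.5, 27.7, 38.2 and 42.5 RPKM, against 34.0, 51.5 and 28.3 RPKM in untreated WT muscle. These groups overlapped, and the fitted log2 fold change was -0.66 (SE 0.24, adjusted p = 0.0483, edgeR), close to the threshold. On log2(RPKM + 0.1) the difference was -0.07 (adjusted p = 0.805, limma). Without WT replicate 2, the highest library, it was -0.32 after TMM (adjusted p = 0.201, edgeR). The edgeR call was also lost without dyW replicate 1, 2 or 3. The authors' deposited table gives Tsc22d3 -0.68 with an adjusted p of 0.0226 in this comparison, by a test that is not given. Under TD139 dyW muscle had 22, 21.4 and 22.1 RPKM, nearly equal values that lay below the 23.5 and 30.2 RPKM of WT muscle and below the 23.2, 44.7 and 52.5 RPKM of dyW PBS muscle. Against dyW PBS muscle the fitted value was -0.86 (SE 0.30, adjusted p = 0.888, edgeR); the lowest of those PBS libraries is the shallowest of the series, and after TMM scaling these groups overlapped. WT PBS muscle had 33.8, 26.0 and 38.2 RPKM.

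Fkbp5 encodes a co-chaperone that holds the receptor in a low-affinity state and is one of its most sensitive targets. Untreated dyW muscle had 12.9, 3.22, 3.51 and 3.94 RPKM and untreated WT muscle 1.90, 5.34 and 1.76 RPKM. Replicate 1 stood far above the other dyW libraries. With it the fitted log2 fold change was 0.43 (SE 0.62, adjusted p = 0.586, edgeR), and without it -0.33 (adjusted p = 0.535, edgeR); on log2(RPKM + 0.1), with all libraries, the difference was 0.88. Its values after TD139 were 1.96, 1.22 and 1.27 RPKM in dyW and 0.801 and 0.829 RPKM in WT muscle, all dyW libraries being higher (log2 fold change 0.53, SE 0.47, adjusted p = 0.619, edgeR). After PBS they were 1.22, 2.08 and 3.31 RPKM in dyW and 1.65, 0.596 and 1.59 RPKM in WT muscle, which overlapped. Over the 18 libraries Fkbp5 spanned 21.7-fold.

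Klf15 and Zbtb16 encode transcription factors; Klf15 is known as a direct target of the receptor that drives amino acid breakdown in muscle. It averaged 8.85 ± 2.83 RPKM in untreated dyW and 8.56 ± 3.45 RPKM in untreated WT muscle (SD, n = 4 and 3), with a fitted log2 fold change of -0.46 (SE 0.30, adjusted p = 0.231, edgeR) and of 0.08 on log2(RPKM + 0.1). Without dyW replicate 1, the highest dyW library, it was -0.73 and was called (adjusted p = 0.0356, edgeR); without WT replicate 1 it was -0.22. In WT muscle it had 5.52 and 5.89 RPKM with TD139, below the 11.6, 6.71 and 8.77 RPKM with PBS (log2 fold change -0.55, SE 0.35, adjusted p = 1, edgeR). In dyW muscle the values overlapped, at 7.19, 7.30 and 4.90 RPKM with TD139 and 4, 7.77 and 9.86 RPKM with PBS. Zbtb16, a zinc finger repressor, had 12.2, 4.69, 6.45 and 4.45 RPKM in untreated dyW muscle, against 9.12, 7.97 and 6.87 RPKM in untreated WT muscle. Again dyW replicate 1 was the highest and the other 3 dyW libraries lay below all WT libraries. The fitted log2 fold change was -0.73 (SE 0.35, adjusted p = 0.110, edgeR) with that library and -1.18 (adjusted p = 0.000553) without it, and the difference on log2(RPKM + 0.1) was -0.31. In the authors' deposited table Zbtb16 has -0.746 with an adjusted p of 0.0315. In the treated mice Zbtb16 ranged from 5.85 to 7.85 RPKM in dyW TD139, 3.13 to 11.8 in dyW PBS, 3.25 to 5.65 in WT TD139 and 3.14 to 8.60 in WT PBS muscle.

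The remaining 2 genes act on growth signalling and fuel choice. Ddit4 encodes REDD1, which restrains the kinase complex mTORC1. It stood at 12.9, 15, 11.4 and 10.7 RPKM in untreated dyW muscle and at 7.19, 9.30 and 4.76 RPKM in untreated WT muscle, without overlap in RPKM. After TMM scaling the same groups overlapped and the log2 fold change was 0.27 (SE 0.24, adjusted p = 0.368, edgeR), against 0.85 on log2(RPKM + 0.1). With TD139 the values drew together at 6.43, 6.02 and 7.14 RPKM in dyW and 6.82 and 7.63 RPKM in WT muscle. With PBS they spread over 7, 12.2 and 15.9 RPKM in dyW and 17.4, 6.67 and 16.2 RPKM in WT muscle. The fitted TD139 differences were -0.83 (SE 0.35) in dyW and -0.78 (SE 0.39) in WT muscle, with adjusted p of 0.888 and 1 (edgeR), and the lowest PBS library of each genotype lay within or below the TD139 values.

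Pdk4 encodes the kinase that shuts pyruvate dehydrogenase and so spares glucose. Untreated dyW muscle had 153, 267, 178 and 125 RPKM, and untreated WT muscle 119, 68.4 and 120 RPKM. In RPKM all dyW libraries were higher; after TMM the groups overlapped, at a log2 fold change of 0.28 (SE 0.28, adjusted p = 0.429, edgeR), against 0.81 on log2(RPKM + 0.1). After TD139 it had 61.6, 103 and 90.6 RPKM in dyW muscle, above the 33.3 and 15.2 RPKM in WT muscle (log2 fold change 1.46, SE 0.84, adjusted p = 0.427, edgeR). PBS libraries were scattered, with 127, 24.8 and 264 RPKM in dyW and 158, 24.1 and 65.6 RPKM in WT muscle. The highest dyW PBS library thus exceeded the lowest 10.6-fold, and no other gene of the set spread as far within a group.

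The 5 genes whose log2 expression followed that of Arrdc2 most closely over the 18 libraries, among 9943 protein-coding genes compared, were Dusp7, Chac1, Gadd45g, Gtf2ird2 and Cbx7. Pearson's r was 0.85 for Dusp7, which encodes a phosphatase of ERK kinases, 0.81 for Chac1, a glutathione-degrading enzyme, for the stress gene Gadd45g and for Gtf2ird2, and 0.80 for the Polycomb gene Cbx7. The libraries share their groups and their scaling, so these coefficients are descriptions. With group means removed, r was 0.62, 0.67, 0.59, 0.43 and 0.80 in the same order. Dusp7 averaged 4.08 ± 0.127 RPKM in dyW TD139, 5.16 ± 0.683 in dyW PBS, 4.22 ± 0.379 in WT TD139 and 6.35 ± 1.19 RPKM in WT PBS muscle (SD, n = 3, 3, 2 and 3), and 5.09 ± 0.597 RPKM in untreated dyW and 5.30 ± 1.17 RPKM in untreated WT muscle (n = 4 and 3). Its groups lay far closer together than those of Arrdc2. As for Arrdc2, the lowest mean was that of dyW TD139 and the highest that of WT PBS muscle, which a choice by likeness favours. The dyW TD139 and WT TD139 libraries overlapped for Dusp7.

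Genes that work with the set were counted in untreated muscle, from lists written with earlier results of these data known; over all genes, 24.7% were called higher and 25.1% lower. Of 16 tested genes of the glucocorticoid receptor machinery (the receptor, its relatives, the enzymes that set local hormone, chaperones and cofactors), 12 were lower and 1 was higher in dyW, with a median log2 fold change of -0.89. Nr3c1, the receptor gene, had 10.3, 9.58, 9.53 and 9.39 RPKM in untreated dyW muscle, against 20.9, 15.7 and 15.2 RPKM in untreated WT muscle. All dyW libraries were lower, with a log2 fold change of -1.37 (SE 0.13, adjusted p = 0.000178, edgeR), and the call held in all 15 alternatives run, from -1.43 to -0.76. The corepressor gene Ncor1 (-1.46, SE 0.20), the coactivator gene Ncoa2 (-0.97, SE 0.15) and the mineralocorticoid receptor gene Nr3c2 (-1.04, SE 0.17) were also lower. On log2(RPKM + 0.1) 6 of the 16 were called lower and 1 higher, with a median of -0.28, and with 1 library left out 8 to 12 were lower and 1 was higher (2 without dyW replicate 4); without untreated WT replicate 3 the median was -0.50. None of the 16 was called in dyW against WT muscle under PBS or under TD139, where 2.68% and 1.04% of all genes were called, and Nr3c1 had log2 fold changes of -0.18 (SE 0.27) and 0.15 (SE 0.30) there.

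Of 21 other genes known to be induced by glucocorticoids and tested in untreated muscle, 6 were higher and 4 lower, counts close to the shares over all genes (24.7% and 25.1%), with a median of 0.11. The cell cycle inhibitor gene Cdkn1a averaged 72.1 ± 8.02 RPKM in dyW and 6.30 ± 3.05 RPKM in WT muscle (SD, n = 4 and 3; log2 fold change 3.00, SE 0.25). The metallothionein genes Mt2 (4.41, SE 0.40) and Mt1 (2.46, SE 0.36), which also answer to metals and inflammation, were higher. Mstn, which encodes the growth inhibitor myostatin, was lower at 4.91 ± 3.50 RPKM in dyW, against 24.3 ± 2.14 RPKM in WT muscle (-2.82, SE 0.51, adjusted p = 0.00233, edgeR). Chosen after their values were seen, the genes of this list called in the treated mice were Mt1, Mt2 and Cdkn1a, higher in dyW under both PBS and TD139, and Sgk1, lower in dyW under TD139 (log2 fold change -1.27, SE 0.27, adjusted p = 0.0490, edgeR). The Sgk1 call was lost with any 1 of the 5 TD139 libraries left out. Of the 3 genes called higher under TD139, none was called without WT TD139 replicate 1, 1 without WT TD139 replicate 2 and 2 without dyW TD139 replicate 1 or 3. Under PBS 1 of the 3 was called without dyW PBS replicate 1 or WT PBS replicate 3, and 2 without dyW PBS replicate 2.

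**Figure D4:**
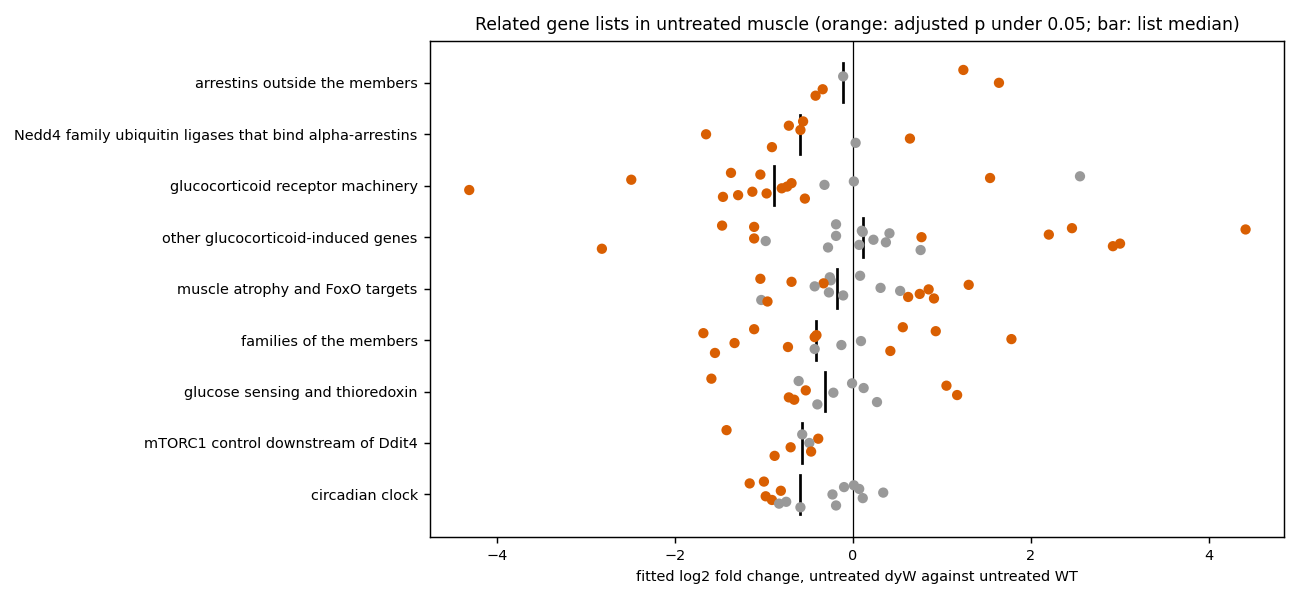
Fitted log2 fold change in untreated dyW against untreated WT muscle (horizontal axis) of the genes in 9 related lists (rows). Each point is a gene, orange where its adjusted p was under 0.05, and the black bar is the median of the list, which is -0.89 for the glucocorticoid receptor machinery and 0.11 for other glucocorticoid-induced genes.

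Partners of the alpha-arrestins were counted in the same way. Of 7 Nedd4 family ligases, 5 were lower and 1 was higher in untreated dyW, with a median of -0.59, beside 25.1% lower and 24.7% higher over all genes. Wwp1 averaged 18.9 ± 2.80 RPKM in dyW and 40.6 ± 2.51 RPKM in WT muscle (SD, n = 4 and 3; log2 fold change -1.65, SE 0.18, adjusted p = 0.000295, edgeR), Smurf2 (-0.91, SE 0.13) and Nedd4l (-0.72, SE 0.17) were lower, and Wwp2 was higher (0.64, SE 0.12). On log2(RPKM + 0.1) 2 of the 7 were called lower and 2 higher. Among 5 tested arrestins outside the set, the beta-arrestin gene Arrb2 (1.64, SE 0.22) and the alpha-arrestin gene Arrdc1 (1.24, SE 0.23) were higher (list median -0.11, and 0.41 on log2(RPKM + 0.1)), while the retromer genes Vps26b (-0.42, SE 0.11) and Vps26a (-0.34, SE 0.11) were lower after TMM and had differences of 0.12 and 0.20 on log2(RPKM + 0.1). Of 12 genes of glucose sensing and thioredoxin, 2 were higher and 4 lower, with a median of -0.31 after TMM and 0.22 on log2(RPKM + 0.1). Mlxip, which encodes MondoA, was lower at 7.23 ± 0.949 RPKM in dyW, against 14.9 ± 1.48 RPKM in WT muscle (-1.59, SE 0.16), Txn1, which encodes the thioredoxin that Txnip binds, was higher at 82.4 ± 23.3 RPKM, against 27.1 ± 4.51 RPKM (1.05, SE 0.19), the glucose transporter gene Slc2a1 was higher (1.17, SE 0.23) and the phosphatase gene Pdp1 lower (-0.66, SE 0.14).

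Relatives of the members and the pathways they act on gave mixed counts, to be read against 24.7% of all genes called higher and 25.1% called lower. Of 14 genes from the families of the members, 4 were higher and 7 lower in untreated dyW (median -0.42, and 0.15 on log2(RPKM + 0.1)), among them Zbtb20 (-1.55, SE 0.12), Tsc22d2 (-1.11, SE 0.12), the REDD2 gene Ddit4l (-1.68, SE 0.29) and Pdk3 (1.78, SE 0.28). In the mTORC1 branch below Ddit4, 5 of 7 genes were lower and none was higher, namely Tsc1 (-1.42, SE 0.23), Rps6kb1 (-0.88, SE 0.19), Akt1s1 (-0.47, SE 0.11), Rheb (-0.39, SE 0.10) and, outside the naming rule, Rptor (-0.70, SE 0.21); on log2(RPKM + 0.1) 1 of the 7 was called lower, and Akt1s1 and Rheb had differences of 0.07 and 0.16. Of 18 atrophy and FoxO genes, 5 were higher and 4 lower, close to those shares (median -0.18, and 0.37 on log2(RPKM + 0.1)), with Gabarapl1 (0.75, SE 0.11) and Ctsl (0.62, SE 0.13), both of the autophagy and lysosome path, higher and Foxo4 (-1.04, SE 0.12) and Insr (-0.96, SE 0.17) lower. Of 15 circadian clock genes, 5 were lower and none higher (median -0.59), led by Clock (-1.16, SE 0.14), Cry1 (-0.81, SE 0.15), Nr1d2 (-0.98, SE 0.19) and Tef (-0.91, SE 0.25). On log2(RPKM + 0.1) the median was 0.04, and of these named genes Cry1 (-0.26, adjusted p = 0.137) and Tef (-0.32, adjusted p = 0.210) were not called by limma. Tef also lost its call without WT replicate 2 or 3 (adjusted p = 0.0619 and 0.0518, edgeR). Lower clock genes numbered 4 to 7 with 1 library left out. Single libraries moved some of these counts: lower genes of the families numbered 3 without untreated dyW replicate 3 or 4 and 4 without WT replicate 1 or 2, lower mTORC1 genes 3 without dyW replicate 3, lower Nedd4 ligases 3 without WT replicate 2, and lower glucose-sensing genes 2 without WT replicate 2 or dyW replicate 3. Lower atrophy genes numbered 7 without dyW replicate 1, higher ones 3 without any 1 of the WT replicates, and lower arrestins 0 or 1 without any 1 library other than dyW replicate 1. Apart from the glucocorticoid-induced list above, no gene of these lists was called between the genotypes under PBS or under TD139.

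Markers of other cells differed between the same libraries. The summed RPKM of 8 macrophage markers was 551 to 777 in untreated dyW and 62.8 to 105 in untreated WT muscle, 196 to 242 in dyW TD139 and 144 to 387 in dyW PBS muscle, and 49.1 to 81.4 in WT TD139 and 43.8 to 52.5 in WT PBS muscle. For 8 muscle fibre markers it was 37012 to 46946 in untreated dyW and 51623 to 62938 in untreated WT muscle, 46297 to 53119 in dyW TD139 and 55363 to 65451 in dyW PBS muscle, and 70068 to 82411 in WT TD139 and 49305 to 80389 in WT PBS muscle. The dyW TD139 libraries, the lowest for Arrdc2, lay below all dyW PBS and all WT TD139 libraries in this sum. Untreated dyW libraries, whose sums reached down to 37012, had 4.37 to 8.81 RPKM of Arrdc2, against 1.44 to 2.18 RPKM in dyW TD139 muscle. Single fibre markers went both ways in dyW TD139 against dyW PBS muscle, from a log2 fold change of -0.30 for Mylpf to 1.46 for Myh2. Adipocytes also express several genes of the set. For 6 adipocyte markers the sum was 4144, 3372, 1458 and 736 in untreated dyW replicates 1 to 4 and 205 to 846 in untreated WT muscle. Replicate 1, with the highest adipocyte sum, is also the library with the highest RPKM of Fkbp5, Klf15, Txnip and Zbtb16 of all 18, and after TMM scaling the highest of Fkbp5 alone among these 4 genes; replicate 2, with the next highest sum, had 3.22 RPKM of Fkbp5 and 4.69 RPKM of Zbtb16. The 6 slow fibre markers summed to 61.5, 244, 1666 and 2048 in untreated dyW and to 109, 0.784 and 8.13 in untreated WT muscle. The sum was 23.5 to 47.8 in dyW PBS muscle, against 1955, 6.09 and 3.59 in WT PBS muscle, where replicate 1 stood apart, and 61.6 to 247 in dyW TD139, against 11.4 and 4.04 in WT TD139 muscle. No marker of any list was at 0 in every library of a group, and the part of these cells in the values above was not tested.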

How the data were processed

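RNA-seq of whole quadriceps was available for 18 mice, 1 library each. Per the labels' protocols, RNA was extracted with TRIzol and sequenced as read pairs from a stranded mRNA kit; mm10 is named in the submitters' processing notes, and the aligner and counter are not given in the sources used here. The authors deposited total and unique exon read counts, RPKM and TPM per gene, per the file headers; the TPM values were not used. The authors also deposited log2 fold changes and p-values of their own comparisons, whose test is not given; these are named where used. It is not stated if pairs were counted once.

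Groups came from the labels; samples carry their own animal numbers and were not paired. Total exon counts were tested with edgeR 4.0.16 (R 4.3.3; quasi-likelihood F-test, TMM, filterByExpr with a minimum count of 10 and a minimum total of 15) and Benjamini-Hochberg adjustment over all genes, with the untreated cohort fitted alone and the treated libraries as 4 groups. Whether the genotype effect differs between the cohorts was not tested. Standard errors belong to fitted values, and SDs of RPKM are between mice. Groups count as separated where no library overlaps in log2 CPM after TMM (prior count 2). Alternatives were DESeq2 1.42.0, RLE size factors, unique reads, no filter beyond 1 read in 1 library, limma 3.58.1 on log2(RPKM + 0.1) and log2(RPKM + 1), the sex label as a term, all 18 libraries in 1 fit, and each library left out in turn. The fit was also run on simulated counts that gave every gene the same spread, unlike these data, and no result here rests on that run. Genes named beside the 10 are Lama2, Nr3c1, up to 4 genes per list with the smallest p in untreated muscle, and the 5 genes most like Arrdc2 by Pearson's r. Those 5 came from protein-coding genes outside the 10, with a mean of at least 1 RPKM and an annotated symbol (no Gm number or clone name). The 10 genes and all lists were chosen with earlier results of these data known.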

Additional observations from a re-analysis of the deposited data

Results flagged for a closer look

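In groups of 4 libraries, a library was marked where its gap to the nearest other one was large against the range of the group. Among the 11 genes examined in untreated dyW muscle, the only group of 4, there were 3 such libraries, and chance marks about 1 in 20 groups. For Fkbp5, replicate 1 was highest at 12.9 RPKM, with the other 3 at 3.22 to 3.94 RPKM. For Klf15, the same library was highest at 13.1 RPKM, with the others at 7.08 to 8 RPKM. For Arrdc3, replicate 2 was lowest at 9.01 RPKM, with the others at 10.9 to 11 RPKM. After TMM scaling Arrdc3 was spread more evenly, with deviations of 0.34, -0.02, 0.11 and 0.27 in log2 CPM for replicates 1 to 4. The genes share the same 4 libraries, so these marks are not independent.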

How the results depend on the processing

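No paired analysis was possible because the labels give the groups no shared replicate numbers. In untreated dyW against WT, 2 of the 10 genes were called; 1 was called with no filter beyond 1 read in 1 library and 1 with the sex label as a term, and 0 to 4 with 1 library left out. Under TD139, dyW against WT called 1; DESeq2 called 2 (Arrdc2 and Txnip), the fit of all 18 libraries 0, and each fit without 1 library 0. In the TD139 comparisons and their difference, where Arrdc2 had no test, 0 of the other 9 genes were called in every alternative run. The median of the 10 genes under PBS, dyW against WT, was -0.45 to 0.22. In untreated muscle Arrdc2 lay between -2.45 and -0.91 over 15 alternatives and lost its call in 7, and Tsc22d3 lay between -0.83 and -0.07 and lost it in 9; why was not tested. With limma on log2(RPKM + 0.1) and log2(RPKM + 1), signs turned in untreated muscle for Arrdc3 (0.51 and 0.46; also 0.01 with no filter), Klf15 (0.08 and 0.07), Vps26b (0.12 and 0.11), Vps26a (0.20 and 0.19), Akt1s1 (0.07 in both) and Rheb (0.16 and 0.14), under TD139 for Arrdc3 (0.44 and 0.36) and Klf15 (0.15 and 0.14), and in the difference of TD139 effects for Ddit4 (0.01 and 0.02) and Fkbp5 (0.01 at the first). Leaving out 1 library turned signs in untreated muscle for Arrdc3 (-0.18 to 0.07) and Fkbp5 (-0.33 to 1.21); for TD139 against PBS in dyW for Arrdc3 (-0.39 to 0.09), Klf15 (-0.46 to 0.19), Pdk4 (-1.19 to 0.31) and Zbtb16 (-0.36 to 0.73), and in WT for Arrdc3 (-1.09 to 0.38), Txnip (-0.49 to 0.30) and Zbtb16 (-0.59 to 0.21). It also did so under TD139 for Arrdc3 (-0.61 to 0.86), Klf15 (-0.26 to 0.02) and Zbtb16 (-0.05 to 0.73), and in the difference for Arrdc3 (-0.54 to 0.94), Fkbp5 (-0.34 to 0.45), Ddit4 (-0.35 to 0.28) and Zbtb16 (-0.21 to 0.88). Under PBS, where no test was made, it did so for Arrdc3 (-0.33 to 0.16), Tsc22d3 (-0.26 to 0.34), Pdk4 (-0.45 to 1.26) and Zbtb16 (-0.59 to 0.50), and Arrdc3 also turned to 0.21 and 0.18 and Txnip moved to -0.02 on the RPKM scales. Arrdc4 in untreated muscle, not called with edgeR and TMM, was called in 4 of 15 alternatives (-0.93 to -0.04). Each of the 10 genes had at least 134 reads in every library, and groups held 2 to 4 mice.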
